A study of Mus musculus with 9 samples.

Results

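The integrated stress response genes described here were Nupr1, Chac1, Atf4, Atf5, Ddit3, Trib3, Asns, Sesn2, Psat1 and Phgdh, 10 genes named by symbol for their place in the pathway and matched to their Ensembl gene IDs. They were chosen with earlier results of these data known, so their counts set beside those of all genes are descriptions and not tests of the set. All 10 were among the 37990 genes listed in the count tables, and all 10 were among the 14465 genes that passed the filter on low counts. Their levels were compared between mouse embryonic stem cells depleted of Fam60a, the same cells depleted of Sin3a, and cells carrying a control hairpin.

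The integrated stress response is a shared answer to amino acid shortage, misfolded protein in the endoplasmic reticulum, viral RNA and heme shortage. Each of these activates a kinase that phosphorylates the translation factor eIF2alpha, which lowers general protein synthesis while the mRNAs of the bZIP transcription factors ATF4, ATF5 and CHOP (encoded by Ddit3) are translated better. ATF4 then binds C/EBP-ATF response elements together with a C/EBP partner and raises genes for amino acid synthesis, amino acid transport, redox balance and, under lasting stress, cell death. Because ATF4 is controlled mainly at translation, its mRNA level and its activity need not move together.

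Fam60a (also named Sinhcaf) and Sin3a are subunits of the Sin3-HDAC corepressor complex, which removes acetyl groups from histones. The cells were the E14 mouse embryonic stem cell line, grown on gelatin in medium with serum, LIF and non-essential amino acids. Lentivirus carrying a pLKO.1 short hairpin against Fam60a, a pLKO.1 hairpin against Sin3a, or a scrambled, non-targeting pLKO.1 hairpin was stably integrated, and the cells were selected with puromycin and passaged 3 times before harvest. Each group had 3 libraries, which the labels call biological replicates, and all 9 libraries therefore came from transduced, puromycin-resistant cells of 1 line. The labels do not say how many hairpins were used against each gene, the titles and the file headers number the Fam60a hairpin samples differently, and the 3 libraries titled T2SC were taken as the scrambled control by elimination.

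Libraries held 5511453 to 7674887 counted reads, except Sin3a knockdown replicate 3, which held 2607872. That library stood apart from its group: its mean correlation with the other 2 Sin3a knockdown libraries was 0.885, against 0.935 to 0.981 for the remaining libraries, and genes of low GC content (at most 41.61%) lay at a median of -1.23 log2 units from the other 2 libraries while those of high GC content (at least 58.14%) lay at 0.79. Reads of 10 mitochondrially encoded genes numbered 80 in that library and 5605 to 6248 in each other. Its part in the Sin3a knockdown values was examined by leaving it out. Calls of members and counts of lists against the control that changed then are given. Fam60a mRNA, given like all levels here as TMM-scaled CPM (reads per scaled library size), was 13.4, 14.0 and 13.1 in control replicates 1, 2 and 3 and 5.59, 6.54 and 5.06 under the Fam60a hairpin (log2 fold change -1.23 ± 0.23 (SE), adjusted p = 0.0280). The 3 values lay below all 6 others, but the call held in only 9 of 20 alternative analyses, and in 1 of the 9 that left out 1 library (without Sin3a knockdown replicate 3), with adjusted p-values up to 0.133. Sin3a mRNA was 311, 281 and 268 CPM in the control and 131, 136 and 110 CPM under the Sin3a hairpin (log2 fold change -1.19 ± 0.11, adjusted p = 0.00149). Under the Fam60a hairpin Sin3a mRNA was 227, 216 and 207 CPM, at 75.6% of the control mean and below all control values. That difference was not called (log2 fold change -0.40 ± 0.11, adjusted p = 0.0964). Markers of embryonic stem cells were read in every library, with a summed level of 1662 to 2152 CPM and none of the 10 at 0.

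Under Sin3a knockdown, 2 of the 10 genes passed the test (edgeR quasi-likelihood, Benjamini-Hochberg adjusted p under 0.05 over all genes tested), and both, Nupr1 and Chac1, were lower than in the control. Of all 14465 genes, 10.2% were called in this comparison 6.28% lower and 3.91% higher. For 8 of the 10 genes, all but Asns and Phgdh, the 3 Sin3a knockdown values did not overlap the 3 control values, against 33.2% of all genes. Of these, Ddit3 and Sesn2 lay above the control and the others below it. Without Sin3a knockdown replicate 3, 5 of the 10 were called, all lower, and 24.5% of all genes were called. Under Fam60a knockdown none of the 10 passed the edgeR test and none had an unadjusted p under 0.05 (0 of 10), where 2.92% of all genes were called (1.49% higher, 1.44% lower) and 15.7% had such a p. DESeq2, which called 7.34% of its genes, and limma-voom also called 0 of the 10 there. For 3 of the 10, Nupr1, Chac1 and Phgdh, the Fam60a knockdown and control values did not overlap, against 34.4% of all genes. The median log2 fold change over the 10 genes was -0.32 for Sin3a knockdown and -0.23 for Fam60a knockdown, where the medians of all genes were -0.01 and -0.02.

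**Figure D1:**
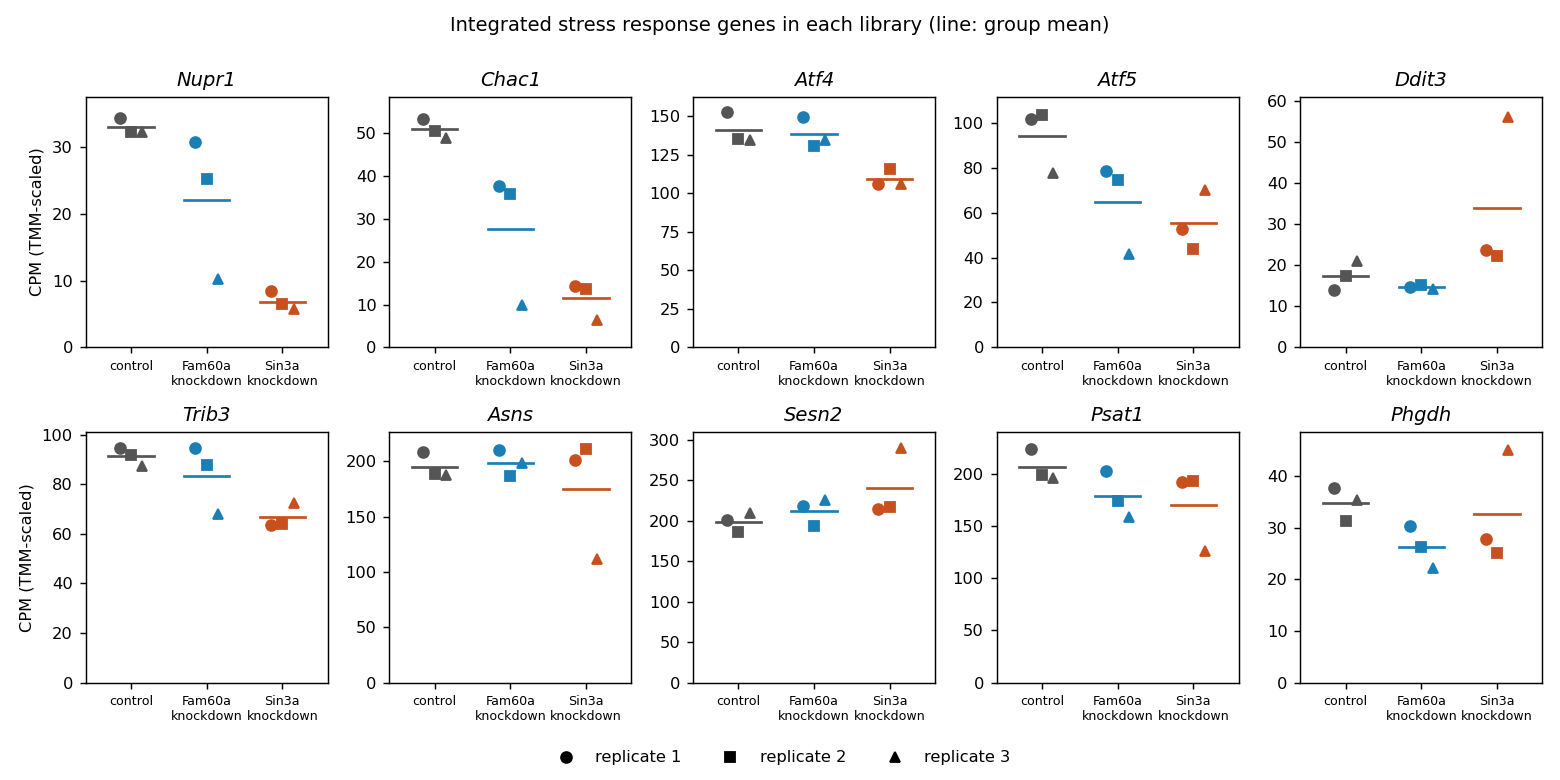
TMM-scaled CPM (vertical axes, each starting at 0) of the 10 integrated stress response genes in every library of the control, Fam60a knockdown and Sin3a knockdown groups, with a symbol for each replicate number and a line at each group mean. Nupr1 and Chac1 sit lowest in the 3 Sin3a knockdown libraries apart from Chac1 in Fam60a knockdown replicate 3 (9.80 CPM), and Sin3a knockdown replicate 3 stands alone for Ddit3 at 56.1 CPM.

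Nupr1 (ENSMUSG00000030717, chr7:126623249-126630861, minus strand, GRCm38) encodes a small, stress-induced chromatin-associated protein and is a known ATF4 target. Its level was 34.4, 32.2 and 32.3 CPM in control replicates 1, 2 and 3. Under Sin3a knockdown it was 8.38, 6.50 and 5.69 CPM, and under Fam60a knockdown 30.8, 25.3 and 10.3 CPM. Every knockdown value lay below every control value, and the Sin3a knockdown values lay below all the others. Nupr1 fell to 20.8% of the control mean in Sin3a knockdown cells (log2 fold change -2.24 ± 0.38, adjusted p = 0.00979). The call held in 20 of 20 alternative analyses, which included leaving out each library in turn, with adjusted p-values up to 0.0401. These values rest on 104 reads in the 3 Sin3a knockdown libraries together, 14 of them in replicate 3, and on 651 in the control. Under Fam60a knockdown the log2 fold change was -0.57 ± 0.35 (adjusted p = 0.537).

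Chac1 (ENSMUSG00000027313, chr2:119351229-119354381, plus strand) encodes an enzyme that breaks down glutathione and is induced by ATF4 together with CHOP. It stood at 53.4, 50.6 and 49.0 CPM in the control. In Sin3a knockdown it stood at 14.3, 13.7 and 6.50 CPM, and in Fam60a knockdown at 37.6, 35.8 and 9.80 CPM. As for Nupr1, no knockdown value reached the control range, and Fam60a knockdown replicate 3 was at the level of the Sin3a knockdown libraries. Chac1 fell to 22.6% of the control mean in Sin3a knockdown cells (log2 fold change -2.10 ± 0.48, adjusted p = 0.0263). The call was lost when Sin3a knockdown replicate 1 (adjusted p = 0.0613) or 2 (0.0618), or control replicate 1 (0.0838), 2 (0.0802) or 3 (0.0604), was left out, with log2 fold changes between -2.28 and -1.86 over all leave-one-out fits. It held without Sin3a knockdown replicate 3 (-1.86, adjusted p = 0.0276). Under Fam60a knockdown the log2 fold change was -0.88 ± 0.45 (adjusted p = 0.416).

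In Fam60a knockdown cells the low values of both genes came mainly from 1 library. Replicate 3 differed from the mean of the other 2 libraries by -1.41 log2 units for Nupr1 and by -1.87 for Chac1. Of the genes tested, 1.60% lay as low or lower in that library as Nupr1 and 0.525% as Chac1. The same difference in control replicate 3 was -0.04 for Nupr1 and -0.08 for Chac1. Without Fam60a knockdown replicate 3, the log2 fold change of Fam60a knockdown against the control was -0.23 for Nupr1 (adjusted p = 0.948) and -0.47 for Chac1 (adjusted p = 0.703). Atf5, described with the transcription factors, was also low in that library. Its total of 6344213 reads and its GC profile were like those of the other Fam60a knockdown libraries.

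Summed levels of markers of other cell types differed between the groups and between libraries of a group. The summed level of 10 primitive endoderm markers was 735 to 2156 CPM in the control, 1674 to 2798 CPM under Fam60a knockdown and 2015 to 3179 CPM under Sin3a knockdown, with replicate 3 highest in each group. Trophectoderm markers summed to 169 to 279 CPM in the control, 274 to 373 CPM under Fam60a knockdown and 209 to 489 CPM under Sin3a knockdown, again highest in replicate 3. Fibroblast markers summed to 132 to 193 CPM in the control, 100 to 134 CPM under Fam60a knockdown, which overlapped the control, and 108 to 127 CPM under Sin3a knockdown. In each library 1 to 5 of the 10 were at 0, and replicate 2 was highest in the control and in Fam60a knockdown. These markers did not move as a set: the 5 that were tested had log2 fold changes of -1.99 to 1.61 under Sin3a knockdown and -2.74 to 0.06 under Fam60a knockdown. The part of these cell types in the lower Nupr1 and Chac1 levels was not tested. Fewer cells of a kind and less mRNA per cell cannot be told apart in such bulk libraries.

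The promoters of both genes are shown because they share a match to the C/EBP-ATF response element, the sequence through which ATF4 acts. That of Asns is shown beside them as a gene with a match whose level was not called changed. The 250 bases upstream of the annotated start in RefSeq (GRCm38.p6) are printed 5′ to 3′ on the gene's own strand, for Nupr1 from chr7:126625471-126625720 (minus strand), for Chac1 from chr2:119350992-119351241 (plus strand) and for Asns from chr6:7693210-7693459 (minus strand), with any match to TGATGNAA on either strand in capitals.
Nupr1: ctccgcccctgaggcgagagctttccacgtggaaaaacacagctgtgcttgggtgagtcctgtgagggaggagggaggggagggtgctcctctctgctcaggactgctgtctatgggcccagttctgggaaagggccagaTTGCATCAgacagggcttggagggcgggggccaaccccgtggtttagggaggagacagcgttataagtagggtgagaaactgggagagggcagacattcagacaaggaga
Chac1: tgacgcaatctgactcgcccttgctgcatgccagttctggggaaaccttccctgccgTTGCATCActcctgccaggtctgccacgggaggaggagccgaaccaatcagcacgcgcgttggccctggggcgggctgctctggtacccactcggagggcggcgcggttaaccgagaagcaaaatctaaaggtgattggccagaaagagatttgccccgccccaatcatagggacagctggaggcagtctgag
Asns: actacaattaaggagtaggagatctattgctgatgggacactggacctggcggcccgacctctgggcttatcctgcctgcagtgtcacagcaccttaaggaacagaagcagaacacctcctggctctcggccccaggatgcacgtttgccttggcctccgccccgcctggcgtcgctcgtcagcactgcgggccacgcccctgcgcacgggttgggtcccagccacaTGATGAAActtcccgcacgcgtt
Nupr1 and Chac1 carried the same 8 letters, TTGCATCA, a match on the opposite strand, which begins at position -110 in Nupr1 and at position -193 in Chac1 relative to the start. Asns carried TGATGAAA on its own strand at position -23. Trib3 held a match, TTACATCA on the opposite strand, at position 14, past the start. With windows running from 250 bases before to 50 after the start, 4 of the 10 genes held a match (40%), against 4.51% of 27025 genes and 15.2% of the 105 other pathway genes with a window. Of the 4, Nupr1 and Chac1 passed the test under Sin3a knockdown, while Trib3 and Asns did not. The remaining 6 genes had no match to these letters in the window. The 10 genes were named for their place in a pathway that acts through this element, so the share with a match is not a test. A match of letters is a description and does not show that a factor was bound.

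Among the transcription factors, Atf4 (ENSMUSG00000042406, chr15:80255184-80257541, plus strand), the central factor of the response, was 153, 135 and 135 CPM in the control. It was 149, 130 and 135 CPM under Fam60a knockdown and 106, 116 and 106 CPM under Sin3a knockdown. The Sin3a knockdown values lay below all 6 others, at 77.7% of the control mean, but edgeR did not call the difference (log2 fold change -0.36 ± 0.11, adjusted p = 0.0710). DESeq2 did (-0.34, adjusted p = 0.0371), and so did edgeR without Sin3a knockdown replicate 3 (-0.34, adjusted p = 0.0209). For Fam60a knockdown the log2 fold change was -0.03 ± 0.11 (adjusted p = 0.985), with overlapping groups.

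Atf5 (ENSMUSG00000038539, chr7:44812256-44816658, minus strand) encodes a bZIP factor whose translation is controlled much like that of ATF4. It measured 102, 103 and 77.8 CPM in the control, 78.7, 74.4 and 41.7 CPM under Fam60a knockdown and 52.6, 43.6 and 70.3 CPM under Sin3a knockdown. Replicate 3 was lowest in the control and in Fam60a knockdown and highest in Sin3a knockdown. The log2 fold changes were -0.54 ± 0.27 for Fam60a knockdown (adjusted p = 0.390) and -0.77 ± 0.27 for Sin3a knockdown (adjusted p = 0.107). Without Sin3a knockdown replicate 3 the latter was -0.96 (adjusted p = 0.0303). Atf5 has a GC content of 61.67%, and genes within 1 percentage point of it lay a median of 0.87 log2 units higher in that library than in the other 2 Sin3a knockdown libraries, where Atf5 lay 0.55 higher. Of its 50-base windows, 2.04% also occur in overlapping annotations of Il4i1 and Nup62.

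Ddit3 (ENSMUSG00000025408, chr10:127290774-127296288, plus strand) encodes CHOP, the factor tied to cell death under lasting stress. Its level was 13.8, 17.3 and 21.01 CPM in the control, 14.7, 15.1 and 14.2 CPM under Fam60a knockdown and 23.6, 22.3 and 56.1 CPM under Sin3a knockdown. All 3 Sin3a knockdown values lay above all 6 others, in the direction opposite to Nupr1 and Chac1, and replicate 3 was the highest by far. The difference from the control was not called (log2 fold change 0.94 ± 0.36, adjusted p = 0.135), and without Sin3a knockdown replicate 3 it was 0.40. In that library Ddit3 lay 1.28 log2 units above the other 2 of its group, where genes within 1 percentage point of its GC content (45.61%) lay at a median of -0.41. The gene overlaps Mars, a methionyl-tRNA synthetase gene on the other strand, whose log2 fold change under Sin3a knockdown was -0.02 ± 0.13 (adjusted p = 0.922).

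Trib3 (ENSMUSG00000032715, chr2:152337422-152344032, minus strand) encodes a pseudokinase that ATF4 and CHOP induce and that in turn restrains both. It was 94.7, 91.8 and 87.2 CPM in the control, 94.6, 87.9 and 67.8 CPM under Fam60a knockdown, and 63.7, 64.1 and 72.3 CPM under Sin3a knockdown. The Sin3a knockdown values lay below the control values, at 73.1% of their mean, and overlapped those of Fam60a knockdown through replicate 3 of each. The test was not passed (log2 fold change -0.45 ± 0.15, adjusted p = 0.0890) but was passed without Sin3a knockdown replicate 3 (-0.51, adjusted p = 0.0202). The log2 fold change for Fam60a knockdown was -0.13 ± 0.15 (adjusted p = 0.859).

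Sesn2 (ENSMUSG00000028893, chr4:132492032-132510501, minus strand) encodes a leucine sensor that restrains mTORC1. Its values were 201, 186 and 209 CPM in the control, 218, 194 and 226 CPM under Fam60a knockdown and 215, 217 and 290 CPM under Sin3a knockdown. The Sin3a knockdown range began just above the top of the control range and overlapped that of Fam60a knockdown. Neither comparison passed the test, with log2 fold changes of 0.27 ± 0.14 (adjusted p = 0.255) and 0.10 ± 0.14 (adjusted p = 0.918) for Sin3a and Fam60a knockdown.

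The 3 amino acid enzymes were not called changed. Asns (ENSMUSG00000029752, chr6:7675169-7693254, minus strand), asparagine synthetase, was 208, 188 and 188 CPM in the control, 210, 187 and 199 CPM under Fam60a knockdown and 201, 211 and 112 CPM under Sin3a knockdown, so that its only low value came from Sin3a knockdown replicate 3. Its log2 fold change under Sin3a knockdown was -0.15 ± 0.21 (adjusted p = 0.682) and turned to 0.08 without that library. Psat1 (ENSMUSG00000024640, chr19:15904678-15947337, minus strand), which makes phosphoserine, was 224, 199 and 196 CPM in the control, 202, 174 and 159 CPM under Fam60a knockdown and 192, 193 and 126 CPM under Sin3a knockdown. The Sin3a knockdown values lay just below the control range (log2 fold change -0.27 ± 0.17, adjusted p = 0.366), and those of Fam60a knockdown overlapped it (-0.21 ± 0.17, adjusted p = 0.714).

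Phgdh (ENSMUSG00000053398, chr3:98313170-98339990, minus strand), the first enzyme of serine synthesis, was 37.8, 31.4 and 35.5 CPM in the control, 30.4, 26.3 and 22.3 CPM under Fam60a knockdown and 27.7, 25.1 and 45.1 CPM under Sin3a knockdown. Neither comparison passed the test, with log2 fold changes of -0.41 ± 0.24 for Fam60a knockdown (adjusted p = 0.523) and -0.11 ± 0.25 for Sin3a knockdown (adjusted p = 0.805). Phgdh counts are uncertain, because 1163 of the 1844 windows of 50 bases in its transcript (63.1%) also occur in 23 other genes, one of them the pseudogene Phgdh-ps1.

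**Figure D2:**
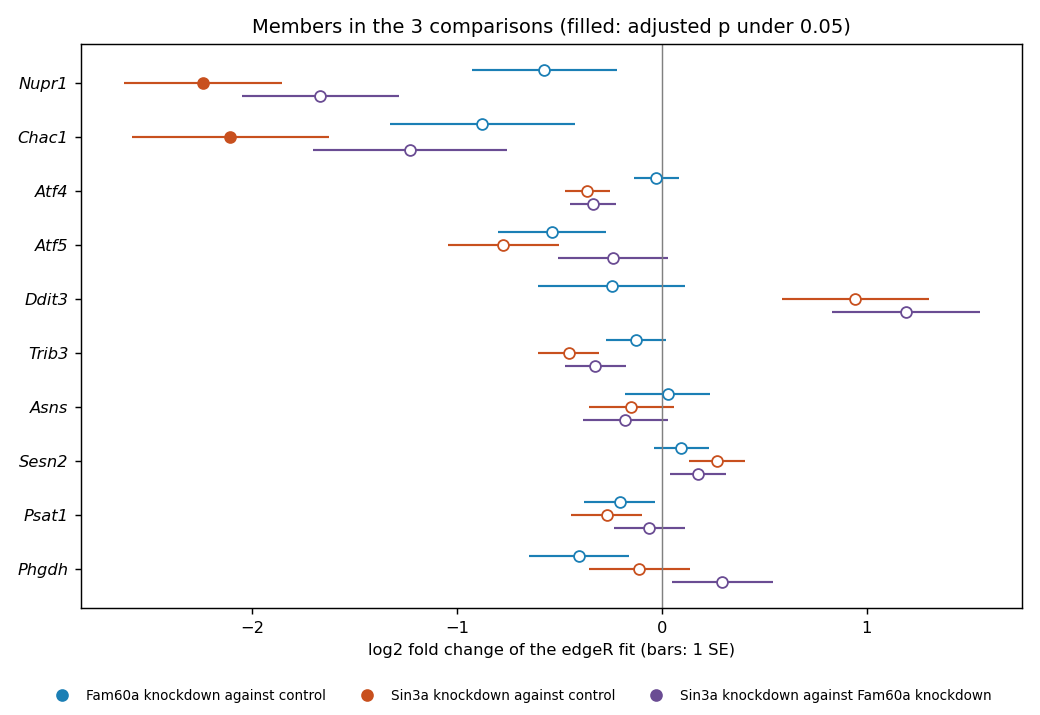
Log2 fold changes of the 10 genes in the edgeR fit (horizontal axis, bars of 1 SE) for Fam60a knockdown against control, Sin3a knockdown against control and Sin3a knockdown against Fam60a knockdown, with filled points for adjusted p under 0.05. The only filled points are Nupr1 (-2.24) and Chac1 (-2.10) for Sin3a knockdown against control, and Ddit3 lies on the opposite side at 0.94.

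Direct comparison of the knockdowns asked where they differed from each other. Of the 10 genes, 0 passed the edgeR test, 4 had an unadjusted p under 0.05, where 3.06% of all genes were called (0.878% higher, 2.18% lower) and 18.1% had such a p. DESeq2 called 2, Nupr1 and Ddit3, with 8.46% of its genes called. Nupr1 came nearest, with 6.86 ± 1.38 CPM (SD, n = 3) in Sin3a knockdown and 22.1 ± 10.6 CPM (n = 3) in Fam60a knockdown (log2 fold change -1.67 ± 0.38, adjusted p = 0.0542 in the edgeR fit). In the paired fit (replicate number as block) its adjusted p was 0.0449, which made it the 1 gene of the 10 called there, with 4.65% of all genes called, and without Fam60a knockdown replicate 3 it was 0.0191 (log2 fold change -2.01). Chac1 differed by -1.23 ± 0.47 (adjusted p = 0.212), with overlapping groups, and by -1.63 without Fam60a knockdown replicate 3 (adjusted p = 0.0432). Atf4 (-0.34 ± 0.11, adjusted p = 0.148) and Ddit3 (1.19 ± 0.36, adjusted p = 0.119) were the other genes of the 10 whose groups did not overlap, 3 of 10 in all with Nupr1, against 25.5% of all genes. Each knockdown was set against the same 3 control libraries, so the comparisons with the control are not independent of each other.

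Libraries of the same number varied together across all genes, so the differences within each number were also examined. For Sin3a knockdown, the log2 CPM differences from the same-numbered control were -1.99, -2.25 and -2.44 for Nupr1 and -1.87, -1.86 and -2.85 for Chac1, which shows a drop of like size in each pair for Nupr1 and a larger one in pair 3 for Chac1. For Fam60a knockdown they were -0.16, -0.35 and -1.62 for Nupr1 and -0.50, -0.50 and -2.28 for Chac1. Atf5 differed by -0.95, -1.24 and -0.15 under Sin3a knockdown and by -0.37, -0.47 and -0.89 under Fam60a knockdown, negative in all 6 pairs. Ddit3 differed by 0.76, 0.36 and 1.40 under Sin3a knockdown and by 0.08, -0.19 and -0.55 under Fam60a knockdown. With the block, 2 of the 10 genes were called under Sin3a knockdown and 0 under Fam60a knockdown, the same counts as without it, while 15% and 6.13% of all genes were called. When all 3 libraries numbered 3 were left out, 6 of the 10 were called under Sin3a knockdown, 5 lower and Ddit3 higher (0.58, adjusted p = 0.0305), with 30.4% of all genes called in that fit. Chac1 (-0.48, adjusted p = 0.0193) and Atf5 (-0.40, adjusted p = 0.0277) were then called lower under Fam60a knockdown, with 16.9% of all genes called. Between the knockdowns 5 of the 10 were then called, with 19.2% of all genes called.

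**Figure D3:**
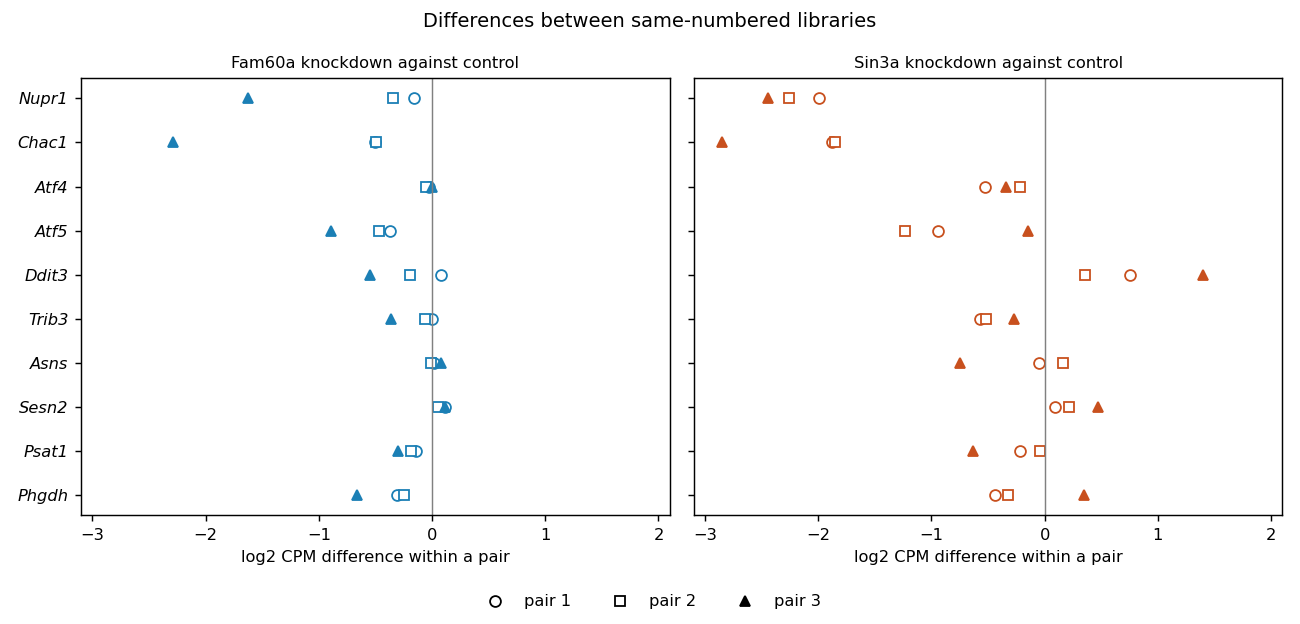
Log2 CPM differences between each knockdown library and the control library of the same number (horizontal axes) for the 10 genes, with a symbol for each pair and pair 3 filled. For Nupr1 and Chac1 the Sin3a knockdown pairs all lie at or below -1.86, while under Fam60a knockdown only pair 3 lies below -1.

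Per kilobase of exon, the order of the genes within the control was Asns (71.2 ± 4.22 CPM per kb, SD, n = 3), Atf4 (59.7 ± 4.34), Sesn2 (57.2 ± 3.29), Psat1 (48.4 ± 3.60), Atf5 (47.3 ± 7.18), Trib3 (42.9 ± 1.78), Chac1 (31.2 ± 1.37), Phgdh (14.0 ± 1.31), Nupr1 (13.1 ± 0.48) and Ddit3 (10.2 ± 2.09). The ranges of Atf4 and Sesn2, of Psat1 and Atf5, of Atf5 and Trib3, and of Phgdh and Nupr1 overlapped, so those neighbours did not differ beyond their spread. The length was that of all annotated exons of a gene merged, 1713 bases for Ddit3 and 4254 for Psat1. A single transcript can be shorter, so the order depends on this choice, and other lengths were not examined. The place of Phgdh also rests on uncertain counts, with 63.1% of its windows shared with other genes. Under Sin3a knockdown the mean of Ddit3 was 19.8 ± 11.2 CPM per kb, above Phgdh at 13.1 ± 4.37, Chac1 at 7.04 ± 2.66 and Nupr1 at 2.73 ± 0.55. The ranges of Ddit3 and Phgdh overlapped, and Ddit3 was highest in replicate 3 (32.7 CPM per kb). Nupr1 was then the lowest of the 10 genes in every Sin3a knockdown library. Under Fam60a knockdown the lower end was Chac1 (16.9 ± 9.51), Phgdh (10.6 ± 1.62), Nupr1 (8.80 ± 4.23) and Ddit3 (8.57 ± 0.27), with each neighbouring pair overlapping. Among all other protein-coding genes tested, the 5 whose log2 CPM followed the mean standardised level of the 10 most closely over the 9 libraries were D030056L22Rik, Klf15, Grm2, Gnb4 and Asprv1, with Pearson r of 0.948 to 0.973, given as a description of libraries that share groups and replicate numbers.

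The rest of the pathway was followed in 10 lists, also chosen with earlier results of these data known. They held 136 other genes, of which 133 were tested. In Sin3a knockdown 4 of these passed the test as higher and 3 as lower (7 of 133, against 10.2% of all genes), and their median log2 fold change was 0.07. In Fam60a knockdown 1 passed, against 2.92% of all genes, with a median of -0.02. With the replicate block 15 were called under Sin3a knockdown, against 15% of all genes, and without Sin3a knockdown replicate 3 there were 31 (18 higher, 13 lower), against 24.5%. Direct comparison of the knockdowns called 1 of the 133 (Sesn3), against 3.06% of all genes.

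The lower genes under Sin3a knockdown were Gdf15, a secreted stress factor (log2 fold change -1.64 ± 0.34, adjusted p = 0.0193), Pycr1, an enzyme of proline synthesis (-0.70 ± 0.17, adjusted p = 0.0289), and Slc7a3, a transporter of cationic amino acids (-0.86 ± 0.19, adjusted p = 0.0219). Pycr1 read 115, 100 and 98.3 CPM in the control, 72.4, 67.5 and 50.6 CPM under Fam60a knockdown and 68.9, 67.0 and 56.5 CPM under Sin3a knockdown, so the values of both knockdown groups lay below the control. For Pycr1 under Fam60a knockdown the log2 fold change was -0.72 ± 0.16 (adjusted p = 0.0547, not called). With the replicate block its adjusted p was 0.0233, and DESeq2 gave 0.00202. Gdf15 read 22.0, 25.7 and 19.1 CPM in the control and 7.01, 6.13 and 8.53 CPM under Sin3a knockdown, and its Fam60a knockdown values of 19.5, 23.0 and 9.64 CPM were again lowest in replicate 3, as for Nupr1 and Chac1. These calls were less stable than that of Nupr1: over the 9 fits that left out 1 library, Slc7a3 was called in 7, Gdf15 in 5 and Pycr1 in 3.

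The higher genes under Sin3a knockdown were Sesn3 (0.92 ± 0.16, adjusted p = 0.0099) and Sesn1 (0.64 ± 0.13, adjusted p = 0.0156), the other members of the sestrin family to which Sesn2 belongs, Bbc3, which encodes the pro-apoptotic protein PUMA (0.99 ± 0.21, adjusted p = 0.0203), and Ddit4, an inhibitor of mTORC1 (1.29 ± 0.34, adjusted p = 0.0420). Sesn3 read 25.2, 24.4 and 24.3 CPM in the control, 26.3, 27.8 and 24.7 CPM under Fam60a knockdown and 44.5, 42.3 and 53.6 CPM under Sin3a knockdown. The difference from Fam60a knockdown was 0.83 ± 0.16 (adjusted p = 0.0307), a call that held in 10 of 20 alternatives and in 1 of the 9 fits that left out 1 library, the 1 without Sin3a knockdown replicate 3, with adjusted p-values up to 0.144. Ddit4 read 40.6, 34.4 and 46.6 CPM in the control and 64.8, 70.2 and 166 CPM under Sin3a knockdown, where replicate 3 alone exceeded 100 CPM. Over the 9 fits that left out 1 library, Sesn3 was called against the control in 9, Sesn1 in 8, Bbc3 in 6 and Ddit4 in 3. Under Fam60a knockdown Sesn1 (0.37 ± 0.13, adjusted p = 0.171), Bbc3 (0.33 ± 0.21, adjusted p = 0.553) and Ddit4 (0.51 ± 0.33, adjusted p = 0.570) were not called. Their values there also lay above every control value, in a comparison where 34.4% of all genes did not overlap. The gene called under Fam60a knockdown was Tnfrsf10b, a death receptor that CHOP can induce. It read 40.2, 41.3 and 46.3 CPM in the control and 64.5, 64.7 and 82.7 CPM under Fam60a knockdown (0.73 ± 0.15, adjusted p = 0.0379). That call held in 1 of the 9 fits that left out 1 library. Under Sin3a knockdown Tnfrsf10b read 56.7, 60.4 and 64.2 CPM, also above every control value but not called (0.50 ± 0.15, adjusted p = 0.0679). The difference between the knockdowns was -0.23 ± 0.15 (adjusted p = 0.448).

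By list, serine, one-carbon and proline synthesis had 1 of 14 genes called under Sin3a knockdown (Pycr1, lower) and 8 of 14 with an unadjusted p under 0.05, all 8 lower, against 25.9% of all genes with such a p in either direction. Its median log2 fold change was -0.33. The mitochondrial enzyme Pck2 came next at -1.10 ± 0.31 (adjusted p = 0.0538), and Shmt2 was -0.33 ± 0.10 (adjusted p = 0.0677). Without Sin3a knockdown replicate 3, 7 of the 14 were called, all lower, where 24.5% of all genes were called. Under Fam60a knockdown the list had 0 called and 2 with an unadjusted p under 0.05, both lower, against 15.7% of all genes. Its median there was -0.22, and for 8 of the 14 the groups did not overlap, against 34.4% of all genes. Between the knockdowns its median was -0.06. The 18 ATF6 and XBP1 chaperone genes belong to the unfolded protein response of the endoplasmic reticulum. Under Sin3a knockdown they had 0 called, 10 with an unadjusted p under 0.05, all higher, and 14 with groups that did not overlap, against 33.2% of all genes. Their median was 0.36. Without Sin3a knockdown replicate 3 their median was 0.19 and 3 of the 18 were called higher, where 24.5% of all genes were called. Hspa5, the main chaperone of that compartment, was at 0.49 ± 0.22 (adjusted p = 0.200), and with the replicate block 3 of the 18 were called higher, where 15% of all genes were called. In the fit without Sin3a knockdown replicate 3, 2 of 11 amino acid transporters were called lower under Sin3a knockdown. Of 15 other stress outputs 4 were then called higher and 1 lower. Of 15 mTORC1 amino acid sensing genes 4 were called higher and 1 lower, against 24.5% of all genes. DESeq2 gave a larger number of calls over all lists, 22 of the other pathway genes under Sin3a knockdown, where it called 15.7% of its genes.

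None of the 6 genes for eIF2alpha kinases and their regulators, the 12 for eIF2, eIF2B and the eIF2alpha phosphatase, the 12 other bZIP factors, the 21 aminoacyl-tRNA synthetases or the 9 tested NRF2 targets passed the edgeR test in either knockdown (0 called, against 10.2% of all genes under Sin3a knockdown and 2.92% under Fam60a knockdown). Unadjusted p-values under 0.05 under Sin3a knockdown numbered 0, 1, 4, 0 and 2 in these lists in that order, and under Fam60a knockdown 0, 0, 3, 0 and 0, where 25.9% and 15.7% of all genes had such a p. The median log2 fold changes under Sin3a knockdown were 0.21, -0.02, -0.06, 0.03 and 0.10. Eif2ak3, which encodes the endoplasmic reticulum kinase PERK, was at 0.33 ± 0.17 (adjusted p = 0.263), and Eif2ak4, which encodes the amino acid sensor GCN2, at 0.22 ± 0.14 (adjusted p = 0.334). The bZIP factors spanned -0.64 to 2.02 under Sin3a knockdown and -0.47 to 2.02 under Fam60a knockdown. Under Sin3a knockdown Fosl1 was at 1.97 ± 0.58 (adjusted p = 0.0640) and Cebpd at 1.88 ± 0.53 (adjusted p = 0.0555). Under Fam60a knockdown they were at 2.02 ± 0.56 (adjusted p = 0.0964) and 1.57 ± 0.52 (adjusted p = 0.163). Of bZIP genes with an unadjusted p under 0.05, 3 were higher and 1 lower under Sin3a knockdown, and 2 and 1 under Fam60a knockdown.

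Several of these zero counts depended on the fit. Without Sin3a knockdown replicate 3, where 24.5% of all genes were called under Sin3a knockdown, 3 of the 6 kinase genes were called higher: Eif2ak1, the heme-regulated kinase (0.27, adjusted p = 0.0260), Eif2ak2, the kinase PKR that senses double-stranded RNA (0.52, adjusted p = 0.00369), and Eif2ak4 (0.34, adjusted p = 0.0130). In the same fit 3 of the 12 bZIP factors were called, 1 higher and 2 lower, and 3 of the 9 NRF2 targets were called higher. The eIF2 and synthetase lists had 0 called there. With the replicate block, where 15% of all genes were called, 2 bZIP factors (1 higher, 1 lower) and 1 NRF2 target (higher) were called under Sin3a knockdown, and DESeq2, with 15.7% of its genes called, called 4 bZIP factors (3 higher, 1 lower) and 1 NRF2 target. Under Fam60a knockdown the fit without Sin3a knockdown replicate 3, where 16.9% of all genes were called, called 1 kinase gene, 4 bZIP factors and 1 synthetase gene, the block called 0 in all 5 lists, and DESeq2 called 2 bZIP factors.

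**Figure D4:**
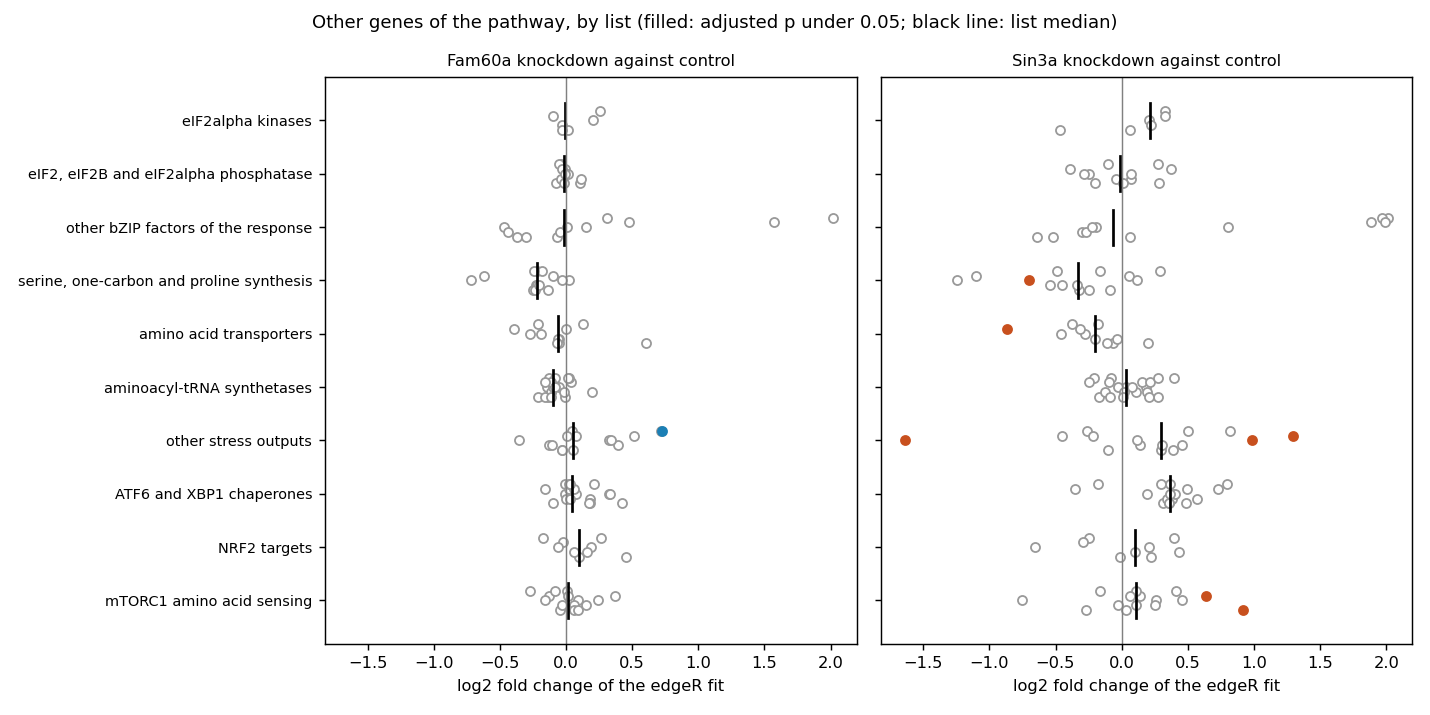
Log2 fold changes in the edgeR fit (horizontal axes) of the other pathway genes in 10 lists, for Fam60a knockdown and Sin3a knockdown against control, with filled points for adjusted p under 0.05 and a black line at each list's median. The serine, one-carbon and proline list has its median at -0.33 and the ATF6 and XBP1 chaperones theirs at 0.36 under Sin3a knockdown, with 1 and 0 filled points. Under Fam60a knockdown these medians lie at -0.22 and 0.05.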

How the data were processed

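Per the labels' protocols, total RNA of 9 cultures was made into TruSeq stranded libraries and read as 50-base single ends. The authors deposited 1 table of raw counts per library, whole numbers of reads per Ensembl gene. Per the submitters' processing notes STAR 2.4.0j, Picard and featureCounts of Subread were used, and per the file headers the alignments counted had duplicates removed, which caps the counts of highly expressed genes. Build and annotation of the counting are not given in the sources used here. Symbols, positions, exon lengths and GC content came from GENCODE M21 (GRCm38), which matched 32918 of 37990 IDs.

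Counts were fitted in R 4.3.3 with edgeR 4.0.16: filterByExpr, TMM, and robust quasi-likelihood F-tests over all 9 libraries in 3 groups, Benjamini-Hochberg adjusted over 14465 genes, threshold 0.05. Every adjusted p comes from this fit unless another tool is named. SEs were the absolute log2 fold change divided by the square root of F, and log CPM used a prior count of 2. The members and lists were chosen with earlier results of these data known. All members and, per pathway list, up to 3 genes called each way were named, with the 5 genes of most similar profile. Pck2, Shmt2, Hspa5, Fosl1, Cebpd and Eif2ak1 to Eif2ak4 were picked after their values were seen. Same-numbered libraries deviated together (r of 0.178 to 0.622 in 9 of 9 pairs, across genes, against -0.448 to 0.113 between numbers), so the numbers were taken to pair the samples, although the labels do not say what they mark. Alternatives used DESeq2 1.42.0 and limma 3.58.1 (voom), other scalings and filters, the block, a GC correction and left-out libraries. The fits without Sin3a knockdown replicate 3 but with the block, and without all replicates 3, were added after seeing the data. Fits were tested on data simulated with the same spread for all genes, no effect of replicate number and no GC shift in any library. That test does not show how the fits behave with paired numbers or with a library like Sin3a knockdown replicate 3. In the libraries 3 reads correspond to 0.385 to 1.22 CPM, and p-values measure the spread between these cultures.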

Additional observations from a re-analysis of the deposited data

How the results depend on the processing

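Under Sin3a knockdown against control, Nupr1 was called in 20 of 20 alternatives and Chac1 in 15 of 20. Members called under Sin3a knockdown were 4 with GC correction and replicate block together, 8 with the block and Sin3a knockdown replicate 3 left out, and 6 with all 3 replicates 3 left out. Under Fam60a knockdown the same fits gave 1, 3 and 2. These fits also called far more of all genes: 22.6%, 47.3% and 30.4% under Sin3a knockdown, 11.6%, 39.6% and 16.9% under Fam60a knockdown, and 10.4%, 36.1% and 19.2% between the knockdowns, so their counts are not results about the members. Between the knockdowns they were 1 without filter, 2 by DESeq2, 1 with the replicate block, 1 with GC correction, 1 with both, and 5 in each of the last 2 fits. The shares of all genes called were 1.62% without filter, 8.46% by DESeq2, 4.65% with the block and 5.54% with GC correction. Other pathway genes called under Fam60a knockdown were 5 by DESeq2, 2 by limma-voom, 2 with the replicate block, 13 with the 6 libraries compared, 3 with GC correction, 7 with GC and block, 47 with the block without Sin3a knockdown replicate 3 and 15 without replicates 3. All genes called in the first 5 of these fits were 7.34%, 5.21%, 6.13%, 12.8% and 4.99%. Under Sin3a knockdown these were 22 by DESeq2, 15 with the block, 4 with 6 libraries, 17, 25, 69 and 38, with 15.7%, 15%, 5.25% and 14.4% of all genes called in the first 4 of these fits. Between the knockdowns they were 0 without filter, 5 by DESeq2, 0 with 6 libraries (0% of all genes called), and 4, 5, 49 and 17. Leaving out 1 library gave 0, 1 to 5 and 0 to 2 members and 0 to 17, 1 to 31 and 0 to 10 other pathway genes for Fam60a knockdown, Sin3a knockdown and the knockdowns against each other. The fit without Sin3a knockdown replicate 3 called 16.9%, 24.5% and 14.7% of all genes in these comparisons. The high ends came without Sin3a knockdown replicate 3, equalled for 2 members without Fam60a knockdown replicate 3, and the low end of 1 pathway gene under Sin3a knockdown came without control replicate 2. The share of all genes called without Fam60a knockdown replicate 3 is not given here, so its count of 2 is not a result about the members. The block changed no other call of a member.

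The fall of Fam60a mRNA missed the threshold without filter (-1.19, adjusted p = 0.0539), with GC correction (-1.23, 0.0931) and with GC and block (-1.22, 0.0666), and lay between -1.34 and -1.15 when 1 library was left out. That of Sin3a was called in 20 of 20 alternatives.

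Signs turned only in values that the reported fit did not call. Atf4 under Fam60a knockdown was 0.0154 without filter and -0.0841 to 0.0580 over the left-out libraries, Asns -0.0123 to 0.101 and Trib3 -0.225 to 0.00259. Phgdh under Sin3a knockdown spanned -0.397 to 0.101 and Asns -0.265 to 0.0824. Between the knockdowns Asns spanned -0.316 to 0.0430, Psat1 -0.156 to 0.0988 and Phgdh -0.00412 to 0.483. With the block and without Sin3a knockdown replicate 3, Asns under Sin3a knockdown was 0.0730, and between the knockdowns Asns was 0.0342, Psat1 0.0480 and Phgdh -0.0478. Without replicates 3 these were 0.0756, 0.0544, 0.0331 and -0.0970. The cause was not tested. In Sin3a knockdown replicate 3, Nupr1 and Chac1, the members called lower, had the fewest reads of the 10 members, with 14 and 16. In the control libraries together Ddit3 had the fewest, with 346, against 651 for Nupr1 and 1007 for Chac1.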
